A study of Mus musculus with 2 samples.

Results

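Ehf, Elf3 and Elf5 are the 3 epithelial ETS transcription factor genes described here, taken by symbol from the 27179 features that both deposited matrices list. All 3 were found in both libraries. The study profiled single cells of mouse mammary glands with and without Ehf. The Ehf knockout library (strain label EhfKO) and the wild type library (strain label WT) each pooled the thoracic and inguinal glands of 2 adult females at 18.5 days of pregnancy, and the sort removed cells positive for Ter119, CD31 or CD45. The labels do not say which part of Ehf was deleted, or whether the deletion was limited to some cells. Each genotype had 1 library. Differences below were therefore not tested, and their 95% intervals cover counting error only and say nothing of the spread between animals.

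ETS factors share a DNA-binding domain that recognises a GGAA core. Ehf (also called ESE-3), Elf3 (ESE-1) and Elf5 (ESE-2) form an epithelium-restricted branch of the family. Elf5 acts downstream of the prolactin receptor and is required for the alveolar cells that make milk. Ehf is expressed in many glandular epithelia, and Elf3 is best known from gut and other simple epithelia.

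Ehf (gene ID 13661) spans chromosome 2, positions 103263431 to 103303275 (minus strand), in the RefSeq annotation of GRCm38.p6. Elf5 (gene ID 13711) spans positions 103412098 to 103450989 (plus strand) of the same chromosome, 109 kb from Ehf. Elf3 (gene ID 13710) spans chromosome 1, positions 135253574 to 135258472 (minus strand). The 250 bases upstream of the RefSeq transcript starts of Elf3 and of both starts of Elf5 are shown because the encoded proteins bind the GGAA core. Each is written on the strand of the gene, and capitals mark GGAA or its reverse complement TTCC. The first is chr1:135258473-135258722 (minus), the next chr2:103411848-103412097 (plus) and the last chr2:103423818-103424067 (plus).
Elf3: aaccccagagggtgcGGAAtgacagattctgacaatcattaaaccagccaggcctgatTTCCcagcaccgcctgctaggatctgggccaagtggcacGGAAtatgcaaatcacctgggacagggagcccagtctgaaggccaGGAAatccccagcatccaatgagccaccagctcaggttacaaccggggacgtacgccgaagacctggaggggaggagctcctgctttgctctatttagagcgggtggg
Elf5, outer start: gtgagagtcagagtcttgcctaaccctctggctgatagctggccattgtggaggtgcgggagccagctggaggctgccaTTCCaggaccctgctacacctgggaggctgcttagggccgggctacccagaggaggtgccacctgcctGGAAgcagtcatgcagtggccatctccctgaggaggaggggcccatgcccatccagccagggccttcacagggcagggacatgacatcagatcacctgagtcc
Elf5, inner start: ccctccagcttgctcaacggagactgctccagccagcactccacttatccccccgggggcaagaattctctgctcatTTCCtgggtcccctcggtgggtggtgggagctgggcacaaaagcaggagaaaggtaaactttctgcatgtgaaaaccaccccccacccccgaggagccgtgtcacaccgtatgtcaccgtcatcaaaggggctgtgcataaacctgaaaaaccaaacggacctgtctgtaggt
The Elf3 window held 4 matches of GGAA counted on both strands, the outer Elf5 window 2 and the inner Elf5 window 1. Across 32851 RefSeq promoter windows of the same length, 93.4% held at least 1 match and the median was 3. The longer forms CCGGAA and AGGAAG, which contain the core and were also searched on both strands, were in 12% and 29.5% of windows and in none of these 3. A match of letters is a description of the sequence, not a binding site.

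Unique molecular identifiers (UMIs, each marking 1 captured RNA molecule) numbered 40066795 over the 7275 knockout barcodes. Over the 11258 wild type barcodes they numbered 48720938. Of these deposited barcodes, 25 occurred in both libraries. After filtering, 6523 and 9089 cells were kept. Clusters made without milk and ETS genes were named from marker genes. They gave a luminal secretory class (luminal progenitor-like and alveolar-like clusters; 815 knockout and 2562 wild type cells), a hormone-sensing class (144 and 124), a basal class (5504 and 6230) and a non-epithelial class of fibroblast-like, endothelial-like and immune-like cells (60 and 173). The luminal secretory class thus made up 12.5% of knockout and 28.2% of wild type cells. A progenitor-like cluster held 677 of its 815 knockout cells, whereas 1 alveolar-like cluster held 1863 of its 2562 wild type cells. The median luminal secretory cell had 5.46% of its UMIs in milk protein genes in the knockout library and 37.8% in the wild type. Levels are therefore given as CPM (UMIs scaled to the class total) over the UMIs outside 12 milk protein genes. Ratios are log2 of knockout over wild type, relative to the median gene of the same comparison.

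Transcripts of all 3 genes were concentrated in luminal secretory cells. Of the Ehf UMIs in kept cells, 91.4% of 1168 in the knockout library and 94.7% of 3533 in the wild type library were in that class. For Elf5 the shares were 96.7% of 3626 and 96.9% of 7834. Elf3 was less confined to the class, with 74.0% of 994 knockout and 82.1% of 967 wild type UMIs, and most of its remaining UMIs were in basal cells. These shares depend on how many cells of each class a library held.

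**Figure D1:**
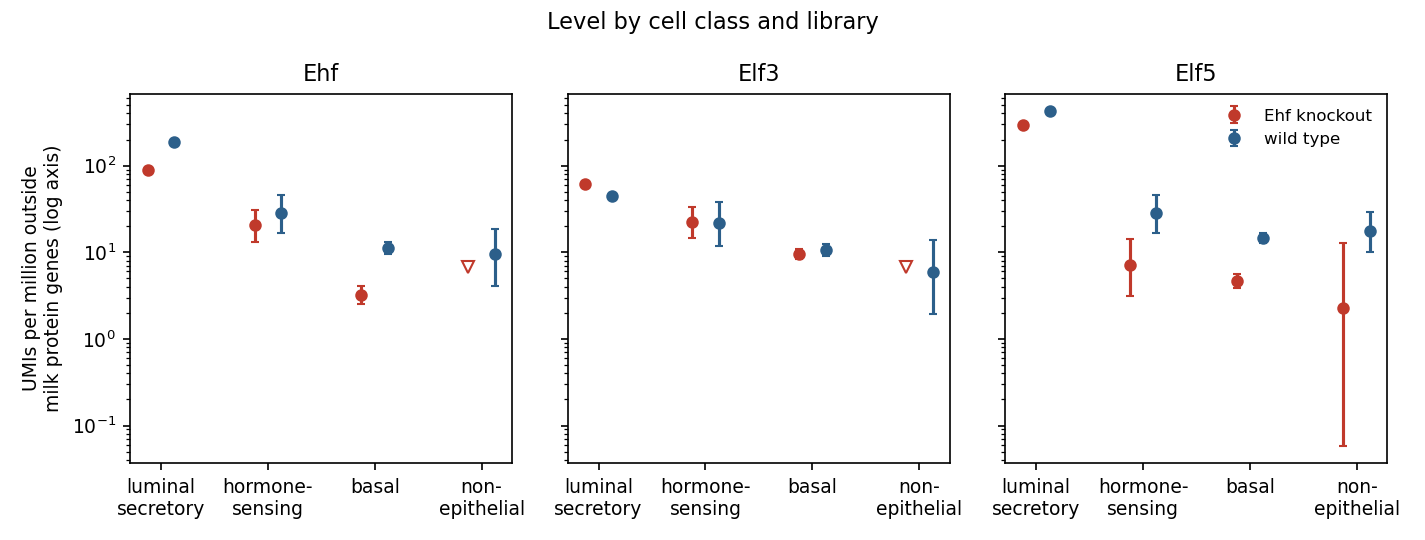
Level of Ehf, Elf3 and Elf5 (CPM outside milk protein genes, log axis) by cell class in the Ehf knockout library (red) and the wild type library (blue). Points are sums over the cells of 1 library, bars are exact Poisson intervals, and open triangles mark the level that 3 UMIs would give where none was counted. In both libraries the luminal secretory class holds the highest level of each gene.

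Ehf, the gene targeted in the knockout, was still counted in luminal secretory cells of the knockout library. There were 1067 Ehf UMIs there, a level of 89.8 (84.5 to 95.4), against 3344 UMIs and a level of 187 (181 to 194) in the wild type library. The level was lower in the knockout library and the counting intervals did not overlap. The log2 ratio was -1.37 (-1.47 to -1.27), a 2.58-fold lower level relative to the median gene. In CPM of all UMIs, without centring, it was -0.51, which is short of 1.5-fold. Of the 11386 genes with at least 50 UMIs, 18.2% were at least 1.5-fold lower in the knockout library and 15.2% at least 1.5-fold higher. The libraries count tags near the 3' end of transcripts. Ehf transcripts that lack a deleted part elsewhere would still be counted, so these UMIs check neither the genotype label nor the presence of protein.

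Elf5 was at a level of 295 (285 to 305) in knockout luminal secretory cells, from 3505 UMIs. In the wild type it was at 425 (416 to 435), from 7590 UMIs. Its log2 ratio over the class was -0.83 (-0.89 to -0.78), so it too was among the genes at least 1.5-fold lower. That value depended on the scaling: in CPM of all UMIs, without centring, it was 0.02. The median gene itself moved by 0.86 on that scale and by 0.31 outside milk genes. Elf3 had 736 UMIs and a level of 62.0 (57.6 to 66.6) in the knockout and 794 UMIs and a level of 44.5 (41.4 to 47.7) in the wild type. Its log2 ratio was 0.17 (0.03 to 0.32), which did not reach 1.5-fold, and it was 1.03 on the uncentred scale of all UMIs. The 3 genes thus stood at different places among all genes: 5.19% of measured genes had a lower ratio than Ehf, 11.7% a lower ratio than Elf5 and 62.5% a lower ratio than Elf3.

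Per cell, the 3 transcripts were sparse. Ehf had no UMI in 45.2% of the luminal secretory cells of the knockout library and 42.6% of those of the wild type, at median depths of 10528 and 9005 UMIs. Single Ehf UMIs were seen in 23.2% and 26.8%, and 4 or more in 11.0% and 9.17%. Elf5 reached 4 or more UMIs in 42.0% (knockout) and 31.3% (wild type) and was at 0 in 14.5% and 17.9%. Elf3 was at 0 in 56.3% and 78.3%, so most wild type cells had no Elf3 UMI.

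To compare shares at equal depth, each cell was thinned to 2000 UMIs, which left out 30 knockout and 106 wild type luminal secretory cells. Ehf was then seen in 15.5% (13.1 to 18.3) of 785 knockout cells and 20.2% (18.6 to 21.8) of 2456 wild type cells, against 54.8% and 57.4% unthinned. Elf3 was seen in 12.6% (10.4 to 15.1) and 4.89% (4.07 to 5.81). Elf5 was seen in 41.3% (37.8 to 44.8) and 40.1% (38.1 to 42.0), shares whose intervals overlapped. Because milk transcripts fill part of the 2000 UMIs, thinning was repeated on UMIs outside milk genes. The Ehf shares were then 18.6% and 29.9%, the Elf3 shares 12.2% and 7.99% and the Elf5 shares 43.8% and 55.5%. The Elf5 share of cells was thus near equal on the first scale and higher in the wild type on the second, and no order is read from the first.

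Cells with UMIs of 2 of the genes occurred about as often as the product of the single shares. At 2000 UMIs per cell, 54 of 785 knockout cells held both Ehf and Elf5 (6.88%, 5.21 to 8.88), where the product of the single shares gives 6.41%. In the wild type 208 of 2456 cells held both (8.47%, 7.40 to 9.64), against a product of 8.08%. Elf3 and Elf5 were seen together in 41 knockout cells (5.22%, product 5.21%) and 37 wild type cells (1.51%, product 1.96%). Ehf and Elf3 were seen together in 13 (1.66%, product 1.96%) and 28 (1.14%, product 0.985%). In each of these 6 cases the counting interval of the observed share included the product, so no excess or deficit of joint detection was detectable at this depth. At the same 2000 UMIs, all 3 genes were seen in 6 knockout cells (0.764%) and 8 wild type cells (0.326%), and none of them in 43.6% and 45.7%. At full depth, where cells differ in their UMI totals, the Ehf and Elf3 pair exceeded the product in both libraries: 29.7% (26.6 to 33.0) against 24.0% of knockout cells, and 15.3% (14.0 to 16.8) against 12.5% of wild type cells. The Ehf and Elf5 pair did so in the knockout library, at 50.6% (47.1 to 54.0) against 46.9%. All 3 genes were then seen in 28.6% and 14.0% of cells, and none of them in 7.24% and 8.12%. At 2000 UMIs outside milk genes the most frequent pair was again Ehf and Elf5, in 384 of 2352 wild type cells (16.3%, product 16.6%) and 66 of 781 knockout cells (8.45%, product 8.13%).

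**Figure D2:**
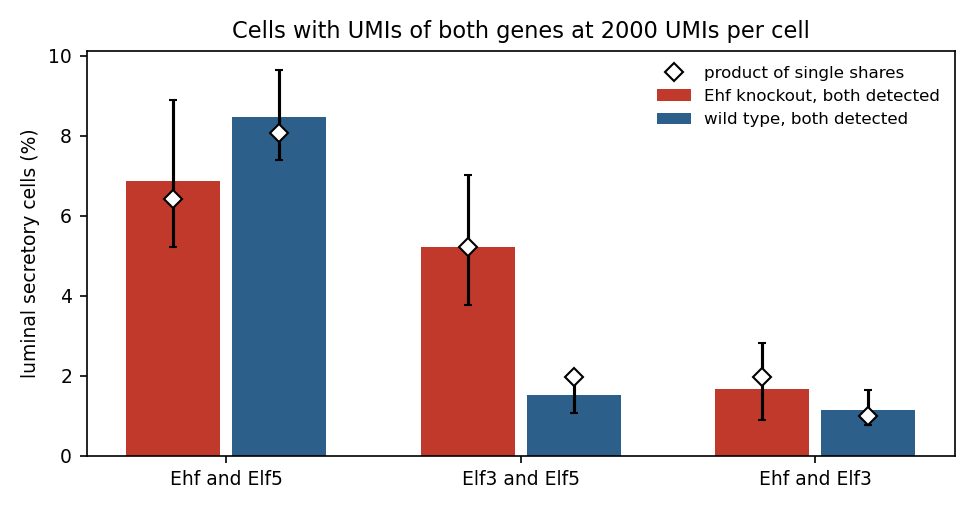
Share of luminal secretory cells (y axis, percent) with UMIs of both genes of a pair after thinning to 2000 UMIs per cell, in the knockout library (red bars, 785 cells) and the wild type library (blue bars, 2456 cells). Error bars are exact Clopper-Pearson intervals and diamonds are the product of the single shares. Every diamond lies inside the interval of its bar.

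Levels outside milk genes differed along the milk share of wild type luminal secretory cells. By level, Ehf and Elf3 were highest in the cells with the least milk, and Elf5 in those with the most. Cells were divided by the milk protein share of their UMIs into ranges below 5%, 5 to 15%, 15 to 35% and above 35%, which held 83, 154, 826 and 1499 wild type cells and 378, 295, 120 and 22 knockout cells. Wild type Ehf was at 493 (424 to 569) below 5%, 278 (245 to 315) at 5 to 15%, 234 (222 to 247) at 15 to 35% and 146 (139 to 153) above 35%. The level was 3.38-fold higher in the lowest range than in the highest, with no overlap between those 2 intervals. Wild type Elf5 was at 161 (123 to 207), 226 (196 to 259), 395 (378 to 412) and 466 (453 to 479) over the same ranges. It ran the other way and was 2.90-fold higher in the highest range than in the lowest. That rise depended on the scale. In CPM of all UMIs, wild type Elf5 was at 156, 203, 283 and 256, highest at 15 to 35%. Depth differed too, with medians of 3021 UMIs per wild type cell below 5% and 10502 above 35%. With cells thinned to equal depth outside milk genes, Ehf was seen in 42.4% (29.6 to 55.9), 38.9%, 37.9% and 24.4% (22.1 to 26.7). The Ehf intervals of the end ranges did not overlap. The Elf5 shares were 35.6%, 34.9%, 55.4% and 58.2%.

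Wild type Elf3 was at 134 (99.4 to 177), 69.1 (52.9 to 88.5), 48.2 (42.6 to 54.3) and 37.5 (34.0 to 41.3). Of the 50 Elf3 UMIs in the lowest range, 25 were in 1 cell. Without that cell the level there was 75.7, against 37.5 in the highest range. At equal depth outside milk genes, Elf3 was seen in 11.9% (4.91 to 22.9), 12.7%, 8.48% and 7.15% (5.86 to 8.62) of wild type cells. By share of cells Elf3 was thus not highest in the lowest range, and the intervals of the end ranges overlapped. In the knockout library Ehf was at 106 (96.4 to 116), 85.8 (78.2 to 94.0), 69.9 (58.5 to 82.9) and 45.2 (21.7 to 83.2). The last of these rests on 10 UMIs in 22 cells. Knockout Elf5 was at 238 (224 to 253), 305 (290 to 320), 371 (344 to 400) and 529 (438 to 634), an increase along the milk share like that of the wild type. Knockout Elf3 was at 70.3 (62.7 to 78.7), 56.5 (50.4 to 63.2), 59.8 (49.3 to 71.9) and 49.8 (24.8 to 89.0), and its intervals in the 2 end ranges overlapped.

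**Figure D3:**
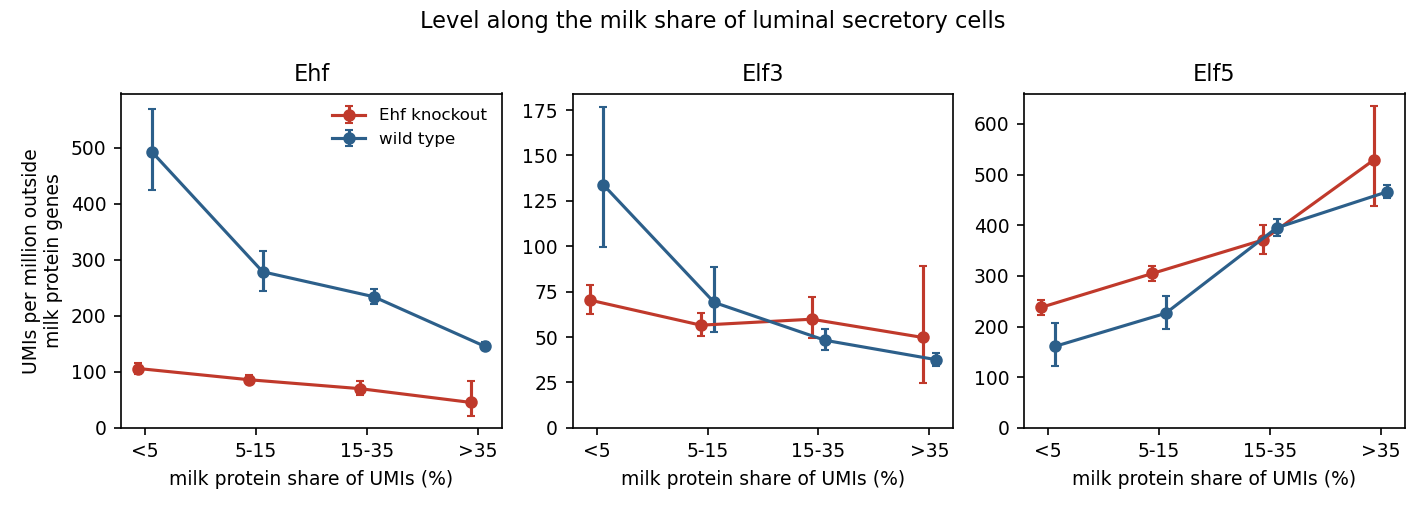
Level of Ehf, Elf3 and Elf5 (y axis, CPM outside milk protein genes) in luminal secretory cells by the milk protein share of their UMIs (x axis, percent). Points are sums over the cells of 1 library, bars are exact Poisson intervals, and the y axes differ between panels. Wild type Ehf goes from 493 to 146 and wild type Elf5 from 161 to 466, and the wild type Elf3 point below 5% includes 1 cell with 25 of 50 UMIs.

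Compared within a range of milk share, Ehf was at least 1.5-fold lower in the knockout library in all 4 ranges. Its log2 ratio was -2.34 (-2.59 to -2.09) below 5%, -1.75 (-1.98 to -1.53) at 5 to 15%, -1.76 (-2.03 to -1.50) at 15 to 35% and -1.76 (-2.82 to -0.88) above 35%. Of all measured genes, 17.7%, 12.6%, 10.7% and 21.7% were at least 1.5-fold lower in these ranges, and 19.2%, 12.9%, 8.14% and 22.2% at least 1.5-fold higher. Elf5 did not reach 1.5-fold in any of them. Its log2 ratio was 0.44 (0.07 to 0.85), 0.38 (0.16 to 0.59), -0.11 (-0.23 to 0.02) and 0.11 (-0.17 to 0.38). By level, Elf5 was thus higher in the knockout library beyond counting error in the 2 lower ranges, while over the whole class it was lower. At equal depth outside milk genes, the Elf5 shares of cells below 5% were 37.3% (32.2 to 42.5) in the knockout and 35.6% (23.6 to 49.1) in the wild type. At 5 to 15% they were 47.2% (41.3 to 53.2) and 34.9% (26.6 to 43.9), so the intervals overlapped in both ranges. Below 5%, median depth was 7827.5 and 3021 UMIs, and 39.4% and 9.64% of cells were cycling.

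The Elf3 log2 ratio was -1.05 (-1.49 to -0.59) below 5%, and -0.25 (-0.84 to 0.40) when the cell with the most Elf3 UMIs in each library was left out. In the other ranges it was -0.34 (-0.74 to 0.07), 0.29 (-0.03 to 0.62) and 0.34 (-0.68 to 1.19), intervals that include 0. With those cells left out below 5%, no difference in Elf3 was detectable within a range of milk share. Both libraries had at least 154 cells only in the range of 5 to 15%. There, median depth was 11674 UMIs per knockout cell and 4279 per wild type cell, 52.9% and 22.7% of cells were cycling (at least 3 UMIs of 8 cell cycle genes), and 88.5% and 76.0% were in the progenitor-like cluster. Summed basal markers (11 genes) were at medians of 0.0306% and 0.0236% of UMIs outside milk genes, against 2.80% and 3.97% in basal cells. Within that range, 6 of the 12 milk protein genes were still at least 1.5-fold lower in the knockout and 0 higher. Of all genes, 12.6% were lower and 12.9% higher. The median log2 ratio of the 12 was -1.02, so a like milk share did not mean a like mix of milk transcripts. With cycling cells left out of that range, the log2 ratio was -1.68 for Ehf, -0.25 for Elf3 and 0.53 for Elf5. Each lay inside the counting interval given above. Beyond that, the part of depth and cycling in the ratios of the 3 factors was not tested. Within 1 percentage point of the 5% edge lay 109 of 815 knockout and 34 of 2562 wild type cells.

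**Figure D4:**
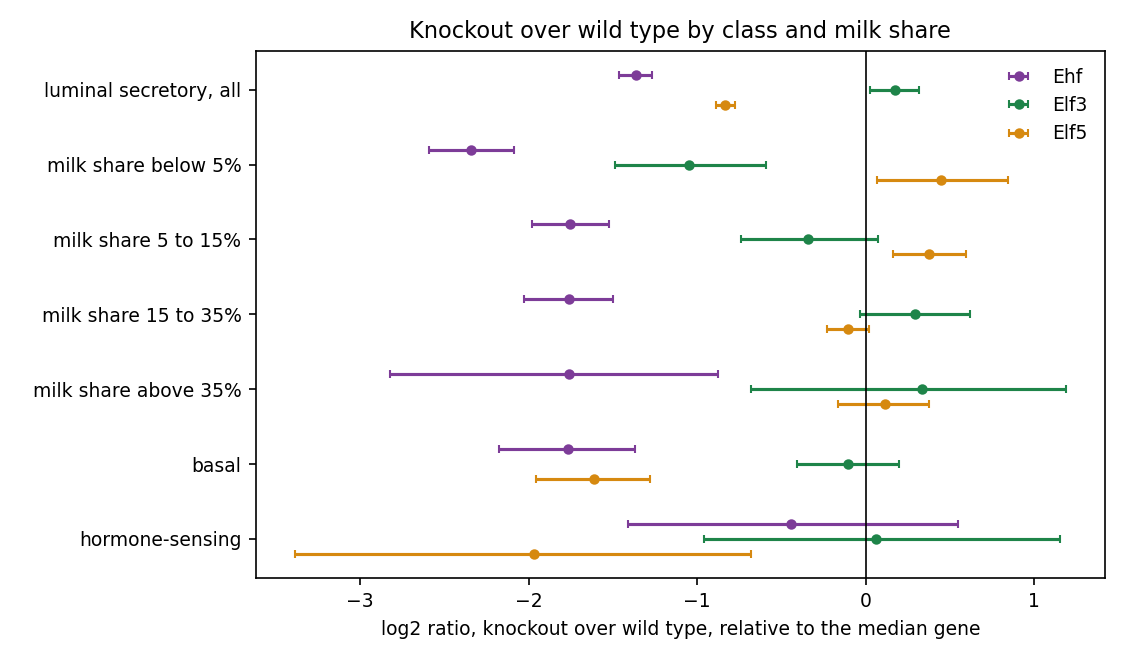
Log2 ratio of knockout over wild type (x axis, relative to the median gene of each comparison) for Ehf (purple), Elf3 (green) and Elf5 (orange) in all luminal secretory cells, in 4 ranges of milk share, and in basal and hormone-sensing cells. Bars are exact intervals for counting error. Ehf lies between -2.34 and -1.37 in luminal secretory cells, whereas Elf5 is at -0.83 over the class and between -0.11 and 0.44 within the ranges.

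The same contrast was seen between clusters. In the progenitor-like cluster, wild type cells had Ehf at 340 (312 to 369), and knockout cells at 92.5 (86.8 to 98.6), a log2 ratio of -1.92 (-2.07 to -1.77) where 12.4% of genes were at least 1.5-fold lower and 12.1% higher. Elf5 there was at 216 in the wild type and 280 in the knockout, a log2 ratio of 0.33 (0.17 to 0.49). Elf3 was at 87.7 and 64.6, a log2 ratio of -0.49 (-0.75 to -0.21), which became -0.26 (-0.55 to 0.04) without the cell with the most Elf3 UMIs in each library. In the alveolar-like cluster that held most wild type cells, Ehf was at 68.4 (49.3 to 92.5) in 70 knockout cells and 170 (163 to 178) in 1863 wild type cells, a log2 ratio of -1.38 (-1.86 to -0.94), with 17.7% of genes at least 1.5-fold lower and 15.3% higher. Elf5 in that cluster was at 495 and 476, a log2 ratio of -0.01 (-0.18 to 0.16). Elf3 was at 47.2 and 37.8, a log2 ratio of 0.26 (-0.34 to 0.80). Within the wild type library, Ehf and Elf3 were higher in progenitor-like than in all alveolar-like cells (340 against 172 and 87.7 against 40.2), and Elf5 was lower (216 against 446). The progenitor-like name rests on marker folds over clusters of other classes. Summed luminal progenitor markers (8 genes) did not set low-milk cells above milk-rich ones. Their wild type medians were 0.218% of UMIs outside milk genes below 5% milk share and 0.229% above 35%. In the knockout library they were 0.148% and 0.445%, the latter from 22 cells.

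Ehf was also lower in both cycling and other luminal secretory cells of the knockout library. The log2 ratio was -1.43 (-1.57 to -1.28) in cycling cells, of which there were 357 and 454, and -1.0 (-1.15 to -0.85) in the others. Of all genes, 15.2% and 18.3% were at least 1.5-fold lower and 11.7% and 16.0% higher. Elf5 was at -0.63 in both. Elf3 was at -0.03 (-0.23 to 0.18) in cycling cells and 0.40 (0.16 to 0.63) in the others. The cycling state was taken from unthinned cells, and cycling cells had median depths of 18179 and 15078 UMIs against 7796 and 8344.5 in the others.

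In basal cells, the contractile layer around the alveoli, the 3 genes were counted at low levels. Ehf was at 3.23 (2.55 to 4.03) from 78 knockout UMIs and 11.2 (9.57 to 13.1) from 164 wild type UMIs. Elf5 was at 4.64 (3.82 to 5.58) from 112 UMIs and 14.5 (12.6 to 16.6) from 212 UMIs. Elf3 was at 9.65 (8.45 to 11.0) from 233 UMIs and 10.6 (9.0 to 12.4) from 155 UMIs. The log2 ratios were -1.77 (-2.18 to -1.37) for Ehf and -1.62 (-1.96 to -1.28) for Elf5, both at least 1.5-fold lower, where 6.72% of 12523 genes were lower and 6.2% higher. The ratio of Elf3 was -0.11 (-0.41 to 0.20), which includes 0.

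RNA released from other cells can give UMIs in droplets whose cells do not express a gene. Its amount was estimated from milk protein transcripts other than Mfge8 in basal cells, on the assumption that basal cells make none. That gave 4.00% of basal UMIs in the knockout library and 6.28% in the wild type. Trf (transferrin) supplied 5491 of the 34922 milk UMIs used in knockout basal cells. It was at 227 CPM there and 3443 CPM in knockout luminal secretory cells, whereas Csn2 was at 594 and 42062. Whether basal cells make some Trf was not tested, and if they do the estimate is too high. Elf5 in basal cells was 1.24 times the estimate in the knockout (1.02 to 1.5) and 1.32 times in the wild type (1.15 to 1.51). The estimate for Elf5 in basal cells was 90.1 knockout and 161 wild type UMIs, beside the 112 and 212 counted. After thinning, Elf5 was seen in 2.83% of wild type basal cells and 2.86% (0.78 to 7.15) of 140 wild type non-epithelial cells, which should lack it. The basal Elf5 share thus did not stand above that of cells that should lack the gene, while the counts were above the estimate beyond counting error. The basal Elf5 ratio is not read as a difference in basal expression.

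Ehf in basal cells was 2.69 times the estimate (2.12 to 3.36) in the knockout and 2.26 times (1.93 to 2.64) in the wild type. In wild type non-epithelial cells Ehf was at 9.47 (4.09 to 18.7), an interval that includes the 11.2 of basal cells, so the basal Ehf ratio is not read as a difference in basal expression either. Elf3 stood further above the estimate, at 9.44 times (8.26 to 10.7) and 7.82 times (6.64 to 9.15). In wild type non-epithelial cells, however, Elf3 was at 5.92 (1.92 to 13.8), an interval that includes the 10.6 of basal cells. It was there 4.35 times the estimate (1.41 to 10.2). Wild type basal Elf3 was thus not set apart from cells that should lack it. In the knockout, 0 UMIs in non-epithelial cells allowed a level of up to 8.37, below the 9.65 (8.45 to 11.0) of basal cells. Set against milk transcripts directly, Elf3 had 66.7 UMIs per 10000 milk UMIs in knockout basal cells and 5.38 in luminal secretory cells of the same library, and 6.53 against 0.702 in the wild type. Ehf had 22.3 against 7.80 and 6.91 against 2.96. Elf5 had 32.1 (26.4 to 38.6) against 25.6 and 8.93 (7.77 to 10.2) against 6.71. All 3 genes thus had more UMIs per milk UMI in basal than in luminal secretory cells. For knockout Elf5, however, the basal interval overlapped that of luminal secretory cells (24.8 to 26.5). After thinning to 2000 UMIs, the Elf3 shares were 1.88% (5311 knockout basal cells) and 1.86% (3286 wild type basal cells). Among non-epithelial cells 0 of 57 and 0 of 140 had an Elf3 UMI, which allows up to 6.27% and 2.60% by exact bounds, above the basal shares. Unthinned, the basal shares were 4.00% and 2.34% at median depths of 3682 and 2043.5 UMIs. Thinning left out 193 knockout and 2944 wild type basal cells.

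**Figure D5:**
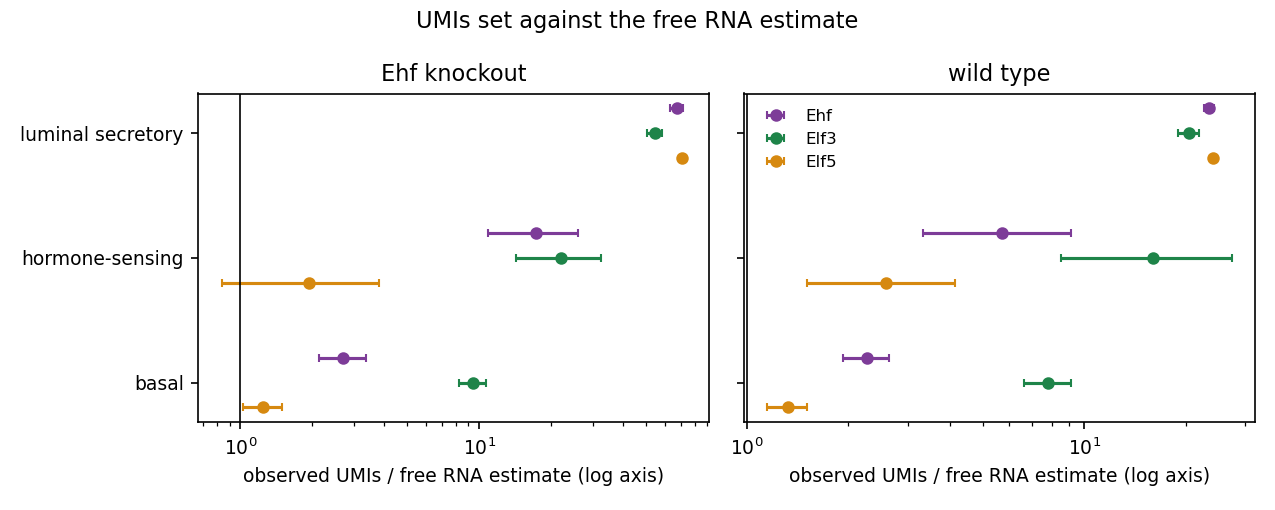
UMIs of Ehf (purple), Elf3 (green) and Elf5 (orange) counted in each epithelial class, divided by the number estimated from free RNA (x axis, log scale, 1 marked by a line), in the knockout library (left) and the wild type library (right). Bars are exact Poisson intervals of the counted UMIs, and the x axes differ between panels. In basal cells Elf5 lies at 1.24 and 1.32 and Elf3 at 9.44 and 7.82.

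Hormone-sensing cells, which carry the oestrogen and progesterone receptors, had few UMIs of any of the 3 genes. Ehf was at 20.7 (13.1 to 31.0) from 23 UMIs in the knockout and 28.7 (16.7 to 46.0) from 17 UMIs in the wild type. Elf3 was at 22.5 (14.6 to 33.2) from 25 UMIs and 22.0 (11.7 to 37.6) from 13 UMIs. The intervals of the 2 libraries overlapped for both genes. Their log2 ratios were -0.45 (-1.41 to 0.55) and 0.06 (-0.96 to 1.15), and no difference was detectable at this depth.

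Elf5 in hormone-sensing cells was at 7.20 (3.11 to 14.2) from 8 UMIs in the knockout and 28.7 (16.7 to 46.0) from 17 UMIs in the wild type. Of these, 7 of 8 and 13 of 17 were in the 3 cells with the most. The log2 ratio was -1.97 (-3.39 to -0.68), from counts below the 50 UMIs asked of a measured gene. The counts of Ehf and Elf3 in these cells were below that minimum too. Among the 4224 genes that met that minimum, 8.81% were at least 1.5-fold lower and 8.95% at least 1.5-fold higher. Against the free RNA estimate, Elf5 was 1.93 times (0.83 to 3.80) and 2.58 times (1.5 to 4.13), whereas Ehf was 17.2 and 5.72 times and Elf3 22.0 and 16.0 times. The Ehf counts also lay partly in few cells, with 9 of 23 knockout and 9 of 17 wild type UMIs in the top 3. For Elf3 these were 6 of 25 and 4 of 13. In non-epithelial cells there were 0 Ehf, 0 Elf3 and 1 Elf5 UMI in the knockout and 8, 5 and 15 in the wild type. A count of 3 UMIs over the class, taken as the limit that a count of 0 allows, would be a level of 6.81 (exact upper bound 8.37). In the wild type the estimates from free RNA were 4.20, 1.15 and 9.30 UMIs.

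Each gene's pattern over clusters was set beside that of 10511 other genes, as the Pearson correlation of log2 levels (with 5 CPM added) over 28 sums of 1 cluster in 1 library, 12 of them from the knockout. These points share libraries and cell classes, so the correlations are descriptions. The 5 genes nearest to Ehf were Ltf (lactoferrin, an iron-binding milk protein, r = 0.95), Ceacam1 (an adhesion molecule, r = 0.94), Plb1 (a phospholipase, r = 0.94), Plet1 (a surface protein of luminal progenitors, r = 0.93) and Tmprss13 (a membrane serine protease, r = 0.93). Those nearest to Elf5 were Wfdc18 (a WAP-domain protein, r = 0.97), Cytip (r = 0.97), Adig (r = 0.97), Muc15 (a membrane mucin, r = 0.96) and Kcnn4 (a potassium channel, r = 0.96). Those nearest to Elf3 had lower correlations and were Galnt3 (an enzyme that starts O-glycosylation, r = 0.90), Barx2 (a homeobox factor, r = 0.87), Tenm4 (r = 0.86), Rhpn2 (r = 0.86) and Mfsd6 (r = 0.85). Among the 3 genes themselves, r was 0.91 for Ehf and Elf5, 0.77 for Ehf and Elf3 and 0.74 for Elf3 and Elf5.

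Genes with a like pattern over clusters had ratios between the libraries that ranged from near that of the factor to far from it. In luminal secretory cells Ltf had 476 knockout and 4054 wild type UMIs, a log2 ratio of -2.81, while Plet1 was at 0.03 and Ceacam1 at 0.22 beside the -1.37 of Ehf. Tmprss13, at 29.4 and 61.2 CPM, had a log2 ratio of -1.36. Near Elf3, Barx2 was at 222 CPM (knockout) and 80.7 CPM (wild type), a log2 ratio of 1.15, while Galnt3 was at 56.2 and 48.9 (-0.11). Beside the -0.83 of Elf5, Cytip was at -1.12, Muc15 at -0.96, Wfdc18 at -0.68, Adig at -0.44 and Kcnn4 at -0.01.

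The other 23 ETS family genes gave a frame for the 3 factors. In luminal secretory cells 13 of them had at least 50 UMIs. None was at least 1.5-fold lower (18.2% of all genes were) and 3 were at least 1.5-fold higher (15.2% of all genes were), and their median log2 ratio was 0.15, or 1.01 in CPM of all UMIs without centring. Of those with at least 200 UMIs, the highest were Erf, an ETS repressor, at 1.0 (0.82 to 1.20), Elf2 at 0.34 and Elf1 at 0.29. The lowest were Etv5 at -0.01, Ets2 at 0.07 and Etv3 at 0.10. The 3 higher genes were Erf, Ets1 at 1.90 from 106 UMIs in all and Elk3 at 0.82, the last 2 named after their values were seen. Within the milk range of 5 to 15%, 9 of the 23 were measured and none reached 1.5-fold in either direction (12.6% of genes were lower and 12.9% higher), with Erf at 0.47 (-0.05 to 1.04). At 15 to 35%, where 10.7% of all genes were lower and 8.14% higher, 8 were measured, and Erf at 0.74 was the only 1 past 1.5-fold. Of 14 measured in basal cells, where 6.72% of all genes were lower and 6.2% higher, none was lower. The 3 higher ones, named after their values were seen, were Etv4 at 1.21, Ets2 at 0.70 and Ets1 at 0.64. Of 5 measured in hormone-sensing cells, where 8.81% of all genes were lower and 8.95% higher, Etv3 was higher at 0.93 (-0.03 to 1.99). Within the ETS family as measured here, Ehf and Elf5 were thus the only members at least 1.5-fold lower in luminal secretory cells on the centred scale, and Ehf alone within the range of 5 to 15%.

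A list of 20 genes was taken for the prolactin, Stat5 and Elf5 pathway, which drives alveolar differentiation. It also holds genes of other receptors, such as Igf1r, Nr3c1, Erbb4 and Tnfrsf11a. Its counts are therefore not a result about prolactin and Stat5 signalling alone. In luminal secretory cells 19 had at least 50 UMIs, 7 were at least 1.5-fold lower and 2 higher, where 18.2% and 15.2% of all genes were, and their median log2 ratio was -0.30 (0.56 in CPM of all UMIs without centring). Within the milk range of 5 to 15% the counts were also 7 and 2 of 19, where 12.6% and 12.9% of all genes were, with a median of -0.47. These were largely other genes. Socs3, Gata3 and Tnfrsf11a were lower in both. Prlr, Irs1, Akt1 and Nr3c1 were lower only over the class, and Jak2, Socs1, Nfib and Igf1r only within the range. The lower genes were listed after their values were seen. The higher genes were Ccnd1 and Igf1r over the class and Ccnd1 and Socs2 within the range, and the genes with the highest and lowest ratios over the class had other ratios there. Ccnd1 (cyclin D1) was at 2.00 over the class and 0.92 (0.76 to 1.09) within the range, and Socs2, a feedback inhibitor of the receptor, at 0.57 and 0.96 (0.45 to 1.51). Igf1r, the IGF-1 receptor, was at 0.92 over the class and -0.96 (-1.60 to -0.28) within the range. Tnfrsf11a, which encodes RANK, was at -1.28 and -0.68 (-1.36 to 0.04), Irs1 at -1.25 and -0.47 (-1.24 to 0.38) and Nr3c1, the glucocorticoid receptor, at -1.19 and -0.28 (-0.70 to 0.16).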

How the data were processed

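Each library was deposited as a matrix of raw UMI counts (whole numbers, genes by barcodes), made with 10x Chromium 3' V3 chemistry per the labels' protocols. The submitters' processing notes name GRCm38 (mm10) and Seurat 4.0.4; the sources used here name no aligner or counting tool. Features without a symbol held 1.74% and 1.36% of UMIs.

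Cells were kept with at least 500 genes, 1000 UMIs and at most 20% mitochondrial UMIs. Scrublet (scanpy 1.11.5, expected rate 6%) called no doublets in the knockout library at its automatic threshold, so the wild type threshold of 0.379 was used in both, which removed 38 and 122 cells. Clustering used Leiden (leidenalg 0.10.2, resolution 1, 2000 variable genes, 30 components, 20 neighbours, seed 1) without milk protein, milk lipid, mitochondrial, ribosomal protein and ETS genes. The 17 clusters were named by the type with the highest median marker log2 fold, which had to be at least 0.3 over clusters of other classes, with 3 detected markers. That reference was chosen after 1 basal cluster missed the minimum against all other cells, most of which were basal.

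UMIs were summed per library and class. Intervals are exact Poisson for sums, exact conditional for ratios and Clopper-Pearson for shares, at 95% (scipy 1.17.1). No test was run, since there was 1 library per genotype. A gene was called at 1.5-fold. Named genes were the 3 factors, the 5 genes most correlated with each over clusters of at least 50 cells (genes with at least 200 UMIs), and the 3 highest and 3 lowest luminal secretory ratios of each list. The members and lists were chosen with earlier results of these data known. The counting step was tested on simulated data. The thinning step was checked only for returning the UMI total asked for. Alternatives covered scaling, gene filter, weight of cells, depth, free RNA, cell filter, doublets, clustering, milk ranges, cycling cells and thinning.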

Additional observations from a re-analysis of the deposited data

Results flagged for a closer look

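The Elf5 log2 ratio of knockout over wild type took opposite signs in different cells, with counting intervals that did not include 0. It was -1.62 (-1.96 to -1.28) in basal cells, 0.44 (0.07 to 0.85) in luminal secretory cells with a milk share below 5% and 0.38 (0.16 to 0.59) in those with a milk share of 5 to 15%. The difference between these values was not tested, since there was 1 library per genotype. The basal value rests on 112 and 212 UMIs, beside 90.1 and 161 estimated from free RNA, and the value below 5% on 1032 knockout and 60 wild type UMIs.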

How the results depend on the processing

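In CPM of all UMIs without centring, the luminal secretory log2 ratio of Ehf was -0.51, that of Elf3 1.03 and that of Elf5 0.025, which reversed the sign of Elf5. Outside milk genes without centring they were -1.06, 0.48 and -0.53. With cells thinned to 2000 UMIs before summing they were -1.11, 0.62 and -0.68, and without cycling cells -1.0, 0.40 and -0.63. With equal weight per cell Ehf was at -1.15 and Elf5 at -0.70. The cause of these shifts was not tested. The other alternatives (gene filter, free RNA, cell filter, doublets, clustering) left the 3 luminal ratios inside their counting intervals. So did every alternative for the range of 5 to 15%, where Elf5 ran from 0.18 (range of 10 to 20%) to 0.53 (without cycling cells). Shares of cells followed the depth chosen. At 1000 UMIs the knockout and wild type shares were 9.33% and 10.9% for Ehf, 5.89% and 2.62% for Elf3 and 22.8% and 23.2% for Elf5. Unthinned they were 54.8% and 57.4%, 43.7% and 21.7%, and 85.5% and 82.1%. At 2000 UMIs outside milk genes Ehf was at 18.6% and 29.9%, wild type Elf3 at 7.99% and wild type Elf5 at 55.5%. Leaving out the cell with the most UMIs of a gene was added after seeing the data. It moved the Elf3 ratio below 5% milk share from -1.05 to -0.25. No paired analysis was possible because each genotype had 1 library and no result came from a test.

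With 1 library per genotype, differences between animals, pools and capture runs cannot be told apart from genotype. Few cells limit the wild type below 5% milk share (83) and the knockout above 35% (22).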

Other observations

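Ehf and Elf5 lie within 109 kb of each other, and 18 other protein-coding genes lie within 1 Mb of Ehf in the RefSeq annotation of GRCm38.p6. In luminal secretory cells 11 of the 18 had at least 50 UMIs, with a median log2 ratio of -0.24. Of these, 2 were at least 1.5-fold lower in the knockout library and 1 higher, where 18.2% and 15.2% of all genes were. The lower genes were Pdhx, a subunit of pyruvate dehydrogenase 190 kb from Ehf, at -1.10 (-1.36 to -0.84), and Lmo2, a LIM-domain cofactor 655 kb away, at -2.48 (-2.86 to -2.12). The higher gene was Cd44, the hyaluronan receptor 362 kb away, at 1.06 (0.76 to 1.37). All 3 were named after their values were seen. Cat, the gene for catalase and the nearest on the far side of Elf5, was at 0.51 (0.37 to 0.66), and Apip, the nearest on the other side of Ehf, at -0.43 (-0.62 to -0.23). Of the 12 measured in basal cells, where 6.72% of all genes were lower and 6.2% higher, Cd59b at -1.04 and Cd59a at -0.70 were lower and Nat10 at 0.59 was higher, all 3 named after their values were seen, and the median was 0.07.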
